A study of Mus musculus with 24 samples.

Results

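The 12 arrays described here come from control mice and ask which genes differed between 2 times of day in the same way in liver and in white adipose tissue, and which did so differently in the 2 tissues. All arrays of the genotype hPER1 S714 control were taken, 12 of the 24 arrays of the series, 3 each from liver at ZT13, liver at ZT1, white adipose at ZT13 and white adipose at ZT1. The other 12 arrays come from hPER1 S714G mice and were used only as a check of the slides. They come from C57BL/6 males aged 2 months, kept for 10 days in light-dark cycles until the tissues were collected. ZT is the hour counted from lights on. All 12 control arrays share a human PER1 transgene, hPER1 S714, whose promoter and site of integration the labels do not give, so none of these mice carries the mouse clock alone. Per the series text the 3 samples of each group were independent repeats, and the labels do not state whether tissues of 1 animal were paired.

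The circadian clock is a loop of transcription factors. BMAL1 (gene Arntl) with CLOCK or NPAS2 activates the Per and Cry genes, whose proteins repress that activation, and it also drives Nr1d1 and Nr1d2, whose products REV-ERB alpha and beta repress Arntl and Npas2. The factors DBP, TEF and HLF, with their antagonist NFIL3, pass the rhythm on to output genes. Liver and adipose tissue both hold this loop, while feeding, hormones and body temperature add signals that reach each tissue differently.

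Levels below are log2 processed signals relative to the 75th percentile of the same array, so a level of 0 is as bright as that percentile and each unit is a factor of 2. A daily change is the level at ZT13 minus the level at ZT1 in 1 tissue, and the difference is the daily change in liver minus that in adipose tissue. Each gene was read by its brightest probe, and levels were not compared between genes. Of 22871 genes fitted, 18956 were measurable in both tissues (a group of either time had all 3 arrays well above background), 729 in liver only and 3186 in adipose tissue only. A gene was called where limma's adjusted p was below 0.05, and the SE is that of the fit. Below background here means not well above background by the scanner's flag.

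3 features of the arrays bear on every result. All 6 ZT1 arrays lay on slide 1, the 3 adipose ZT13 arrays and liver ZT13 replicate 1 on slide 2, and liver ZT13 replicates 2 and 3 on slide 3, so time and slide cannot be told apart in either tissue's daily change. A step between slides common to both tissues cancels in the difference, apart from the step between slides 2 and 3. Adipocyte markers separated the tissues, with a summed level of 3.68 to 3.93 in the liver arrays and 9.26 to 9.61 in the adipose arrays. Hepatocyte markers had a summed level of 10.6 to 11.3 in liver, but all 15 measured markers were also well above background on every adipose array. Their summed level in adipose tissue was 7.28, 5.39 and 7.24 at ZT13, against 7.19, 9.44 and 7.17 at ZT1, so that replicate 2 stood apart low at ZT13 and high at ZT1. For named genes measurable in both tissues, the differences whose call was lost without those 2 arrays are listed below. Over all genes named by rule, 23 adipose daily changes and 22 differences lost their call without them, and 4 and 1 gained one. Which adipose daily changes these were is not given. In whole tissue, fewer cells of a type and less RNA per cell cannot be told apart.

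The daily changes correlated between the 2 tissues, on arrays where time and slide cannot be told apart, and few genes were called for the difference. In simulated data the difference was called for 2 of 100 genes planted at log2 1 and 39 of 100 at log2 2. Few calls therefore do not show that few genes differed. In liver 7291 of 18956 genes were called (38.5%), 3259 higher and 4032 lower at ZT13, and in adipose tissue 6434 (33.9%), 2111 higher and 4323 lower. The daily changes of the 2 tissues correlated across genes with Pearson's r = 0.709 and Spearman's rho = 0.733, a description over genes that share slides. Called in both tissues were 4128 genes, 4070 in the same direction (21.5% of genes; 1650 or 8.7% higher and 2420 or 12.8% lower) and 58 in opposite directions. The shared genes made up 55.8% of the liver calls and 63.3% of the adipose calls. The difference itself was called for 221 of the 18956 genes (1.17%), 114 positive (0.601%) and the rest negative (0.564%), and 2549 genes had an unadjusted p below 0.05. The median gene changed by -0.10 in liver and -0.24 in adipose tissue, with a median difference of 0.16 that fell to 0.04 under quantile normalization. The array median over all probes also moved with slide. In the deposited log2 values (75th percentiles 0.003 to 0.010) it was -3.38 to -3.02 on the control ZT1 arrays. On the control ZT13 arrays, on slides 2 and 3, it was -3.91 to -3.49. Adipose hPER1 S714G ZT1 arrays stood at -3.13 and -3.16 on slide 1, and at -3.56 on slide 2. The part of this in the falls given here and below was not tested.

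**Figure D1:**
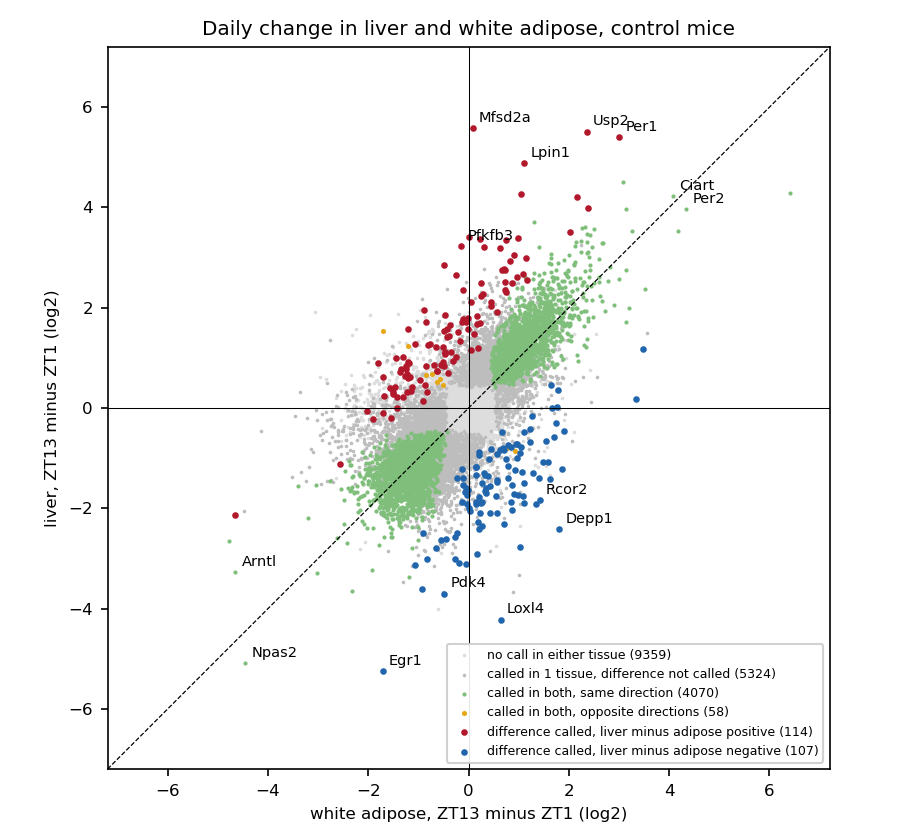
Daily change (ZT13 minus ZT1, log2) of each of the 18956 genes measurable in both tissues, adipose tissue on the x axis and liver on the y axis. Most genes called in both tissues lie near the dashed line of equal change, and the genes with a called difference lie away from it, with Mfsd2a at 5.5 and Loxl4 at -4.86. Genes called for the difference are drawn in its colours also where they were called in both tissues, which covers 49 of the 58 genes with opposite calls.

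The count of 221 depended on single arrays. It was 61 without liver ZT13 replicate 3, 71 without adipose ZT13 replicate 1, 99 and 132 without adipose ZT13 replicates 2 and 3, and it also moved by over 1.5 times without adipose ZT1 replicate 2. It was 114 without liver ZT1 replicate 3, and 127 and 141 without liver ZT13 replicates 1 and 2. With slide as a fixed block all 221 kept their sign. Only liver ZT13 has arrays on both slides 2 and 3, so in that fit its replicate 1 alone sets the liver ZT13 level. Without the 2 adipose arrays that stood apart in hepatocyte markers the count was 47. Among the 33 genes named below that were measurable in both tissues and called for the difference, 20 stayed called whichever single array was left out, and 17 stayed called without the 2 adipose arrays. The 16 calls lost without those 2 arrays were those of Usp2, Nampt, Nmrk1, Coq10b, Pdk4, Saa3, Alas1, Plin4, Plk3, Hsph1, Zbtb16, Retnlg, Dok7, Dclre1b, Slc2a13 and Tsku. With slide as a fixed block the differences of the 33 genes kept their sign. Calls kept or lost in that fit, here and below, rest on liver ZT13 replicate 1 alone. They cannot tell the step between slides from the spread between liver ZT13 replicates.

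Whether slide shaped the shared calls was looked at in 1 array. Adipose hPER1 S714G arrays at ZT1 lay on 2 slides, replicate 3 on slide 2 and replicates 1 and 2 on slide 1. This gives the step from slide 1 to slide 2 without a change of time or tissue, though also with the spread between those arrays. The titles of replicates 2 and 3 carry another prefix than that of replicate 1, and the labels do not say what it stands for. Among the control arrays only adipose ZT13 replicate 2, which stood apart in hepatocyte markers, carries that prefix. The SD of the step over genes was 0.945, against 0.639 and 0.428 for the same contrast of replicates among control adipose arrays within slide 1 and within slide 2. This step correlated across genes with the control daily change at r = 0.70 in liver and r = 0.661 in adipose tissue, and with the difference at r = 0.153. Genes higher in both tissues had a median step of 0.998, positive in 95.3% of them, against 38.9% of all genes. Genes lower in both had a median step of -1.24, negative in 98.4%, against 61.1% of all genes. When all 24 arrays were fitted with slide as a block, liver had 132 calls and adipose tissue 41, of which 17 were shared in direction. In that fit only these adipose hPER1 S714G arrays link slides 1 and 2, so the step it removes is the same step. Liver ZT13 replicate 1 alone sets the liver ZT13 level there, so the fit is not a separate check of the slides. Of the 17, 11 were also among the 4070 shared calls, including Per1, Per2, Dbp, Tef, Wee1 and Foxo1, all higher at ZT13, and Arntl, lower at ZT13. Of 14 core clock genes shared in the fit of 12 arrays, 5 were shared in both fits. Those lost were Per3, Bhlhe40, Ciart, Npas2, Clock, Nfil3, Hlf, Nr1d2 and Usp2. For the shared calls in general, slide and time cannot be told apart.

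Of the 25 core clock genes, all measurable in both tissues, 10 were called higher at ZT13 in both (8.7% of all genes were) and 4 lower in both (12.8%). The difference was called for 2 of 25, Per1 and Usp2, both positive (0.601% of all genes). The median daily change over the 25 genes was 0.45 in liver and 0.39 in adipose tissue, and the median difference -0.18. The 10 higher genes had slide steps of -1.07 to 1.81, and 4 lower ones of -1.27 to 0.72.

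The activators were lower at ZT13. Arntl stood at -1.87, -2.48 and -2.66 in liver at ZT13, against 0.67, 1.17 and 0.94 at ZT1. Its adipose levels were -3.72, -4.37 and -4.90 at ZT13, against 0.53, 0.17 and 0.27 at ZT1. The times did not overlap in either tissue, with daily changes of -3.27 ± 0.30 in liver (adjusted p = 8.2e-05) and -4.66 ± 0.30 in adipose tissue (3.46e-05). The difference of 1.39 ± 0.43 was not called (adjusted p = 0.149, 95% interval 0.45 to 2.33). Npas2, the CLOCK paralogue, was below background on all liver ZT13 arrays and was at least 10.6-fold lower there than at ZT1, and its adipose daily change was -4.45 ± 0.60 (adjusted p = 0.00113). Clock changed less, by -1.37 ± 0.19 in liver and -0.90 ± 0.19 in adipose tissue. Nfil3, the repressor that opposes DBP, was also lower in both tissues, at -2.19 ± 0.35 in liver and -1.24 ± 0.35 in adipose tissue. The adipose call of Nfil3 was lost without adipose ZT1 replicate 3 or adipose ZT13 replicate 2.

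The repressors of the Per family were higher at ZT13. Per2 stood at 1.13, 1.76 and 1.37 in liver at ZT13, against -2.50, -2.49 and -2.68 at ZT1. In adipose tissue Per2 stood at 1.60, 1.73 and 1.52 at ZT13, against -2.38, -3.09 and -2.69 at ZT1. The 2 changes, 3.97 ± 0.22 and 4.34 ± 0.22, were close, with a difference of -0.36 (95% interval -1.05 to 0.32). Per3 was at least 2.66-fold higher in liver, where it was below background at ZT1, and changed by 4.17 ± 0.49 in adipose tissue. Ciart, which encodes the BMAL1 repressor CHRONO, was below background at ZT1 on all arrays and was at least 5.69-fold higher at ZT13 in liver and at least 5.12-fold higher in adipose tissue.

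Per1 was higher at ZT13 in both tissues and by more in liver. It stood at 1.85, 2.24 and 2.13 in liver at ZT13, against -3.26, -3.33 and -3.41 at ZT1. Adipose levels were 2.97, 2.83 and 2.81 at ZT13, against -0.30, -0.23 and 0.13 at ZT1. The ZT13 levels were lower in liver, and the larger liver change came with much lower ZT1 levels. The daily changes were 5.4 ± 0.18 in liver (42.4-fold) and 3.01 ± 0.18 in adipose tissue (8.03-fold), and their difference was 2.40 ± 0.25 (adjusted p = 0.00334). It stayed called whichever single array was left out, and was 2.18 with slide as a block, with liver ZT13 replicate 1 alone. A dimmer Per1 probe changed by -1.50 in liver and -0.45 in adipose tissue, so the probes disagree. The sources used here do not state whether these probes detect human PER1 RNA, which every mouse carries.

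**Figure D2:**
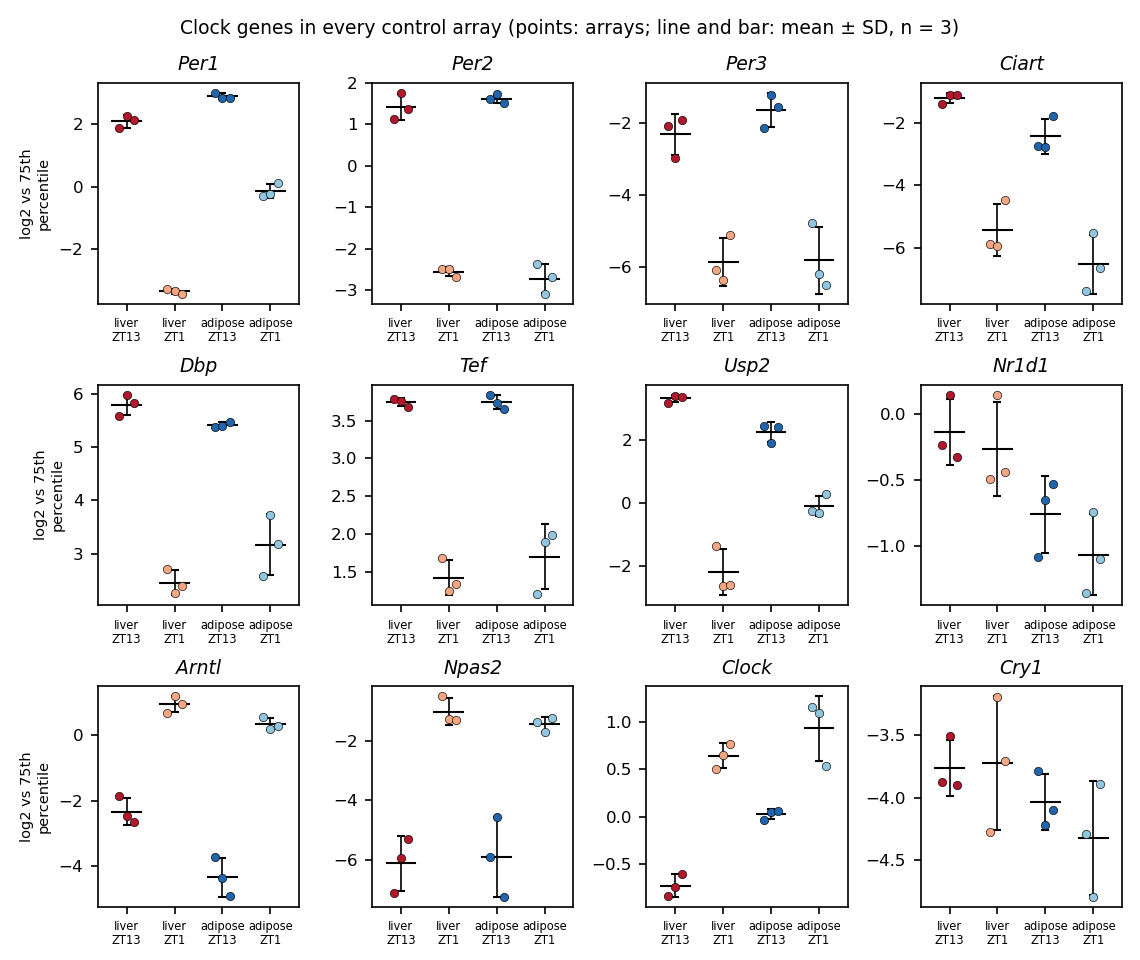
Level of 12 core clock genes (log2 relative to the array's 75th percentile) in each control array, with liver ZT13, liver ZT1, adipose ZT13 and adipose ZT1 from left to right, and mean ± SD over 3 arrays. Per2 and Arntl are separated by time in both tissues, Per1 spans a wider range in liver, and Nr1d1 and Cry1 overlap between times.

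Usp2, a deubiquitinating enzyme, stood at 3.18, 3.41 and 3.38 in liver at ZT13, against -1.35, -2.62 and -2.60 at ZT1. In the adipose arrays it stood at 2.45, 1.9 and 2.41 at ZT13, against -0.26, -0.31 and 0.28 at ZT1. Its changes of 5.51 ± 0.33 in liver and 2.35 ± 0.33 in adipose tissue differed by 3.16 ± 0.46 (adjusted p = 0.0114). That call was lost with slide as a block (3.02, adjusted p = 0.0966) and without the 2 adipose arrays that stood apart in hepatocyte markers.

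The output factors were higher at ZT13 in both tissues. Dbp changed by 3.34 ± 0.26 in liver and 2.25 ± 0.26 in adipose tissue, with a difference of 1.09 ± 0.37 that was not called (adjusted p = 0.185). Tef changed by 2.33 ± 0.22 and 2.06 ± 0.22. Hlf changed by 0.93 ± 0.30 in liver (adjusted p = 0.0331) and 2.19 ± 0.30 in adipose tissue, and its liver call was lost without any 1 of 5 liver arrays, ZT1 replicates 2 and 3 and each ZT13 array. Nr1d2 changed by 1.5 ± 0.32 in liver and 1.96 ± 0.32 in adipose tissue by its brightest probe, which the array places on chromosome 19, while RefSeq places the gene on chromosome 14. A second probe placed on chromosome 14 gave 4.11 and 5.01. Nr1d1, Cry1, Cry2, Rora, Bhlhe41 and Csnk1d were called in neither tissue, with Nr1d1 at 0.13 ± 0.25 in liver and 0.31 ± 0.25 in adipose tissue. Cry1, a repressor that partners the PER proteins, had a slide step of 2.15, and once slide was fitted over 24 arrays it was called lower in liver (-2.30, adjusted p = 0.0428) and was at -1.86 in adipose tissue (0.107).

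The promoters of 4 of these genes are shown because they hold motifs of the clock loop, and that of Pfkfb3 because it holds one in a gene whose change differed between tissues. The 250 bases before the start were searched on both strands in RefSeq's promoters (GRCm38.p6). Capitals mark the E-box CACGTG in Ciart, Per1 and Pfkfb3, the D-box TTATGTAA (searched also as TTACGTAA) in Per3, and the core of the ROR element TAGGTCA, on the reverse strand, in Nfil3 (searched also as TGGGTCA). Ciart lies at chr3:95882229-95882478, Per1 at chr11:69098699-69098948, Per3 at chr4:151044666-151044915, Nfil3 at chr13:52981040-52981289 and Pfkfb3 at chr2:11502091-11502340. Per1 is on the plus strand and the others on the minus strand.
Ciart: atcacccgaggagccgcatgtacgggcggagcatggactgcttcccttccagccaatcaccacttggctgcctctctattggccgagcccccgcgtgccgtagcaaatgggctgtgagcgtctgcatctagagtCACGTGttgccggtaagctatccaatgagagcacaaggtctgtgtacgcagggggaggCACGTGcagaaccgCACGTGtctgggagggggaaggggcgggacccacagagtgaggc
Per1: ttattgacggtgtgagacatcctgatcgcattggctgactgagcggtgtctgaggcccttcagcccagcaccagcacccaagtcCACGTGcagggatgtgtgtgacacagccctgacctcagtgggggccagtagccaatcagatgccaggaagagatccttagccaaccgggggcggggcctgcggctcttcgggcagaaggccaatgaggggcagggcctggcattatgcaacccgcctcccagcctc
Per3: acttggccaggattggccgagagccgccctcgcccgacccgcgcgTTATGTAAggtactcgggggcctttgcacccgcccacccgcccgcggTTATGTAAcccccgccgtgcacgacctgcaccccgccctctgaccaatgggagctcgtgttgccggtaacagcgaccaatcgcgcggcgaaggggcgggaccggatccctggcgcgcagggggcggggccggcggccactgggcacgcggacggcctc
Nfil3: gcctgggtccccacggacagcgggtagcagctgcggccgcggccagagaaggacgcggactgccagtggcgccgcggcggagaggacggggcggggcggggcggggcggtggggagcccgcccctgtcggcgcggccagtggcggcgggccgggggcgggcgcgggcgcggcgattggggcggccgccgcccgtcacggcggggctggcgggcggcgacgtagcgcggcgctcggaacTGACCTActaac
Pfkfb3: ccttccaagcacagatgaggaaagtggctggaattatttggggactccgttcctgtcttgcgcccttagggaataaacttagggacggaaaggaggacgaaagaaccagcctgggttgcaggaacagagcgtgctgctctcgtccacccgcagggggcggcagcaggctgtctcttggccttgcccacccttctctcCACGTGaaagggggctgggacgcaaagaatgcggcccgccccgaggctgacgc
The E-boxes of Ciart begin 116, 58 and 44 bases before the start, that of Per1 166 and that of Pfkfb3 53. The D-boxes of Per3 begin 205 and 158 bases before it. Per1 and Pfkfb3 each have a second start in RefSeq with none of these motifs before it. E-boxes not shown lie 30 bases before the start of Rcor2, whose difference was negative, and 127 and 138 before separate starts of Tef. Cry1 and Bhlhe41, called in neither tissue, also hold an E-box, at 60 and 153 bases. Arntl, Clock and Npas2, lower in both tissues, hold none of these motifs. An E-box was in 6.02% of all 32851 promoters, a D-box in 0.931% and a ROR element core in 5.38%. Of the 10 clock genes higher in both tissues, 8 had a promoter entry, and 3 of the 8 held an E-box before at least 1 start. Counted by gene in the same way, 6.86% of all 27025 genes with an entry held one, and 9.52% of those measurable in both tissues. A match describes these letters and is not a site of binding.

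Among 16 measured genes of a list of clock-linked outputs, which also holds the cold-inducible genes Cirbp and Rbm3, 7 were called higher in both tissues (8.7% of all genes were), none lower in both, and 4 had a positive difference (0.601%), namely Lpin1, Pfkfb3, Nampt and Coq10b. Their median daily change was 1.71 in liver and 0.89 in adipose tissue, against -0.10 and -0.24 over all genes. Wee1, a cell cycle kinase, changed by 3.46 ± 0.25 in liver and 2.42 ± 0.25 in adipose tissue, and its difference was not called (adjusted p = 0.182).

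Lpin1, a phosphatidate phosphatase of triglyceride synthesis, showed 1 of the clearest differences. It stood at 4.49, 5.10 and 5.13 in liver at ZT13, against 0.24, -0.41 and 0.21 at ZT1. In adipose tissue it stood at 3.89, 3.61 and 3.76 at ZT13, against 2.83, 2.59 and 2.50 at ZT1. It was higher at ZT13 in both tissues without overlap, 29.6-fold in liver and 2.17-fold in adipose tissue, and the difference was 3.77 ± 0.34 (adjusted p = 0.00141). With slide as a block, and so with liver ZT13 replicate 1 alone, the difference was 3.36. It stayed called under every other alternative run, single arrays left out included. A dimmer probe gave 5.24 in liver and 2.88 in adipose tissue, with a difference of 2.35 that was not called (adjusted p = 0.0648).

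Pfkfb3 makes the activator of glycolytic phosphofructokinase. It stood at 3.02, 3.06 and 3.17 in liver at ZT13, against 0.14, -0.24 and -0.34 at ZT1. Its adipose levels were 4.15, 3.94 and 3.83 at ZT13, against 3.95, 4.05 and 4.35 at ZT1, where the times overlapped. The difference was 3.37 ± 0.27 (adjusted p = 0.00132). It was 3.31 with slide as a block, with liver ZT13 replicate 1 alone, and stayed called under every other alternative run. The dimmer probe of Pfkfb3 changed by 2.29 in liver and 1.31 in adipose tissue. It gave a difference of 0.98 that was not called (adjusted p = 0.362).

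Nampt, the rate-limiting enzyme of NAD salvage, changed by 2.36 ± 0.21 in liver and 0.72 ± 0.21 in adipose tissue, with a difference of 1.64 ± 0.29 (adjusted p = 0.0225). Nmrk1, a nicotinamide riboside kinase, differed by 1.86 ± 0.34 (adjusted p = 0.0268), and Coq10b, a mitochondrial coenzyme Q carrier, by 2.04 ± 0.38 (0.0263). The Nampt call was lost without any 1 of 6 arrays, that of Nmrk1 without any 1 of 8 and that of Coq10b without any 1 of 5, and all 3 were lost with slide as a block and without the 2 adipose arrays.

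The largest positive difference was that of Mfsd2a, a lysophospholipid transporter. It stood at 4.17, 4.45 and 4.63 in liver at ZT13, against -0.59, -1.80 and -1.13 at ZT1. Adipose levels were -2.34, -4.65 and -3.70 at ZT13, against -4.59, -2.25 and -4.10 at ZT1, where the times overlapped. The difference was 5.5 ± 0.91 (adjusted p = 0.0178), and the call was lost without liver ZT13 replicate 3 (adjusted p = 0.0536) and with slide as a block (0.128). Its adipose replicates 2, low at ZT13 and high at ZT1, followed the hepatocyte markers of those arrays, and the part of those markers in the result was not tested beyond leaving the arrays out, which kept the call.

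Other large positive differences belonged to genes that were higher at ZT13 in liver. They included Arhgef26 (3.36 ± 0.44, adjusted p = 0.00762), a guanine nucleotide exchange factor, and Tsku (3.22 ± 0.55, 0.0199), a secreted liver protein. Plk3, a stress-responsive kinase, followed at 3.15 ± 0.47 (adjusted p = 0.012) and Gas2l3, a cytoskeletal linker, at 2.84 ± 0.38 (0.00814). These 4 were called higher in liver (1.96 to 4.27). In adipose tissue Gas2l3 was lower (-0.88 ± 0.27, adjusted p = 0.0299), so it was among the 58 genes with opposite calls, and the other 3 were not called, at -0.49 to 1.04. Without liver ZT13 replicate 3 the call of Tsku was lost, and with slide as a block none of the 4 was called (adjusted p = 0.0676 to 0.078).

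Cidec and Plin4, which coat lipid droplets, are abundant in adipocytes and are adipocyte markers. Cidec stood at -1.73, -2.0 and -1.71 in liver at ZT13, against -4.30, -4.05 and -5.05 at ZT1, where it was below background on all arrays, at least 3.51-fold higher. In the adipose arrays it stood at 5.78, 5.83 and 5.67 at ZT13, against 5.82, 6.16 and 6.08 at ZT1. The fitted difference of 2.91 ± 0.34 (adjusted p = 0.00489; 2.65 by a second probe, 0.00581) uses the liver ZT1 signals below background, so its size was not measured. Plin4 differed by 2.01 ± 0.29 (adjusted p = 0.0114), with a liver change of 1.58 ± 0.21. Of 9 adipocyte markers measurable in both tissues, these 2 included, 3 were called higher there and 4 lower (17.2% and 21.3% of all genes), and Adipoq, for adiponectin, was at -0.64. The summed adipocyte level in liver was 3.84 to 3.93 at ZT13, against 3.68 to 3.82 at ZT1. Plin4's call was lost with slide as a block (1.76, adjusted p = 0.106).

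Nrg4, an adipokine-type growth factor, stood at 3.0, 2.90 and 3.18 in liver at ZT13, against -0.15, -0.33 and -0.62 at ZT1. In adipose tissue it stood at 4.59, 4.30 and 4.55 at ZT13, against 3.51, 3.17 and 3.79 at ZT1. The difference was 2.40 ± 0.29 (adjusted p = 0.00518), and a second probe gave 2.65 (adjusted p = 0.01), while another, dim probe gave -0.18. Alas1, the rate-limiting enzyme of heme synthesis, changed by 2.93 ± 0.21 in liver and 0.82 ± 0.21 in adipose tissue, a difference of 2.11 ± 0.30 (adjusted p = 0.00927), with 1.95 by a second probe (0.00836). With slide as a block neither was called (adjusted p = 0.0508 for Nrg4 and 0.078 for Alas1).

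Heat shock and cold-inducible genes were called in larger number in liver. Of 17 measured, 9 were higher and 1 lower in liver at ZT13 (17.2% and 21.3% of all genes), and 2 higher and 1 lower in adipose tissue (11.1% and 22.8%), with a median daily change of 0.58 in liver and -0.30 in adipose tissue. The difference was called for 2 of them, both positive (0.601% of all genes). Hspa1a, the inducible HSP70, stood at 1.88, 1.75 and 1.81 in liver at ZT13, against -0.94, -0.36 and -0.75 at ZT1. Its adipose levels were -0.03, 0.28 and -0.28 at ZT13, against -0.01, -0.28 and -0.48 at ZT1, with overlap. Its difference of 2.25 ± 0.30 (adjusted p = 0.00805) stayed called without any single array but not with slide as a block (0.0676). The co-chaperone gene Hsph1 differed by 1.88 ± 0.37 (adjusted p = 0.0311), lost without any 1 of 10 arrays.

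Glucocorticoid-responsive genes were partly shared. Of 17 measured, 5 were called higher in both tissues (8.7% of all genes were), among them Fkbp5, a receptor co-chaperone, at 1.75 in liver and 1.53 in adipose tissue, and Sgk1, a kinase, at 2.38 and 3.51. The difference was called for Per1 and for Zbtb16, a zinc finger factor, at 1.5 ± 0.29 (adjusted p = 0.0311), which was lost without any 1 of 9 arrays. Mt2 and Dusp1 were called higher in liver, by 1.41 and 1.43, and not in adipose tissue, but their differences were not called (adjusted p = 0.0893 and 0.16).

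**Figure D3:**
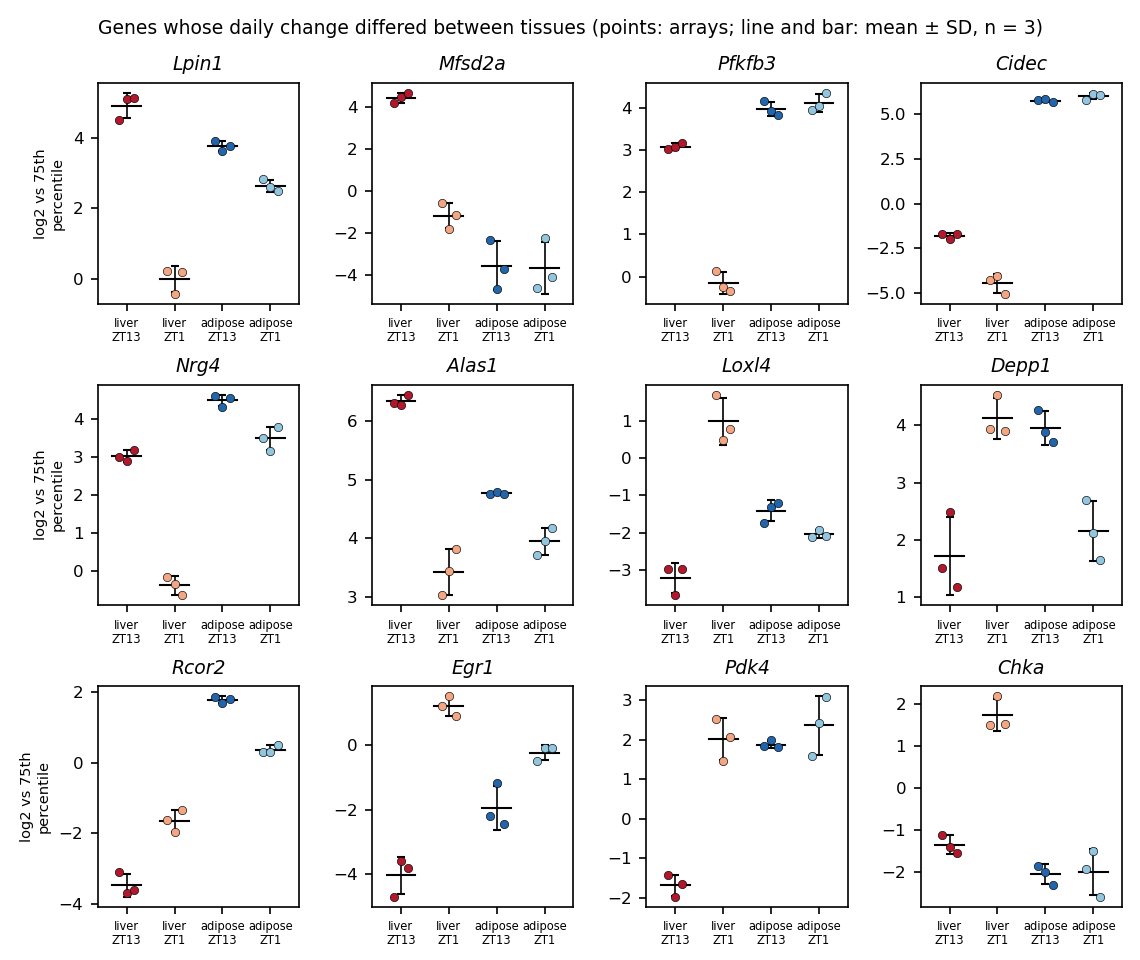
Level of 12 genes whose daily change differed between tissues (log2 relative to the array's 75th percentile) in each control array, with liver ZT13, liver ZT1, adipose ZT13 and adipose ZT1 from left to right, and mean ± SD over 3 arrays. Lpin1 to Alas1 were higher at ZT13 in liver and Loxl4 to Chka lower, with smaller or opposite changes in adipose tissue.

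Most of the largest negative differences came from genes that were lower at ZT13 in liver. Loxl4, a lysyl oxidase of extracellular matrix, stood at -2.97, -3.69 and -3.00 in liver at ZT13, against 1.72, 0.50 and 0.78 at ZT1. Adipose levels were -1.73, -1.30 and -1.20 at ZT13, against -2.12, -1.93 and -2.10 at ZT1. Liver was 18.6-fold lower at ZT13, the adipose change of 0.64 was not called (adjusted p = 0.134), and the difference was -4.86 ± 0.44 (adjusted p = 0.00141). It was -4.61 with slide as a block, with liver ZT13 replicate 1 alone, and stayed called under every other alternative run. A second probe gave -4.38 (adjusted p = 0.00804).

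Egr1, an immediate early transcription factor, stood at -4.69, -3.59 and -3.82 in liver at ZT13, against 1.22, 1.52 and 0.89 at ZT1. In the adipose arrays it stood at -2.21, -1.17 and -2.45 at ZT13, against -0.50, -0.10 and -0.10 at ZT1. It was lower at ZT13 in both tissues, by a factor of 37.9 in liver and 3.27 in adipose tissue. The difference was -3.53 ± 0.52 (adjusted p = 0.0113), and -4.19 with slide as a block, with liver ZT13 replicate 1 alone. Egr1 was 1 of 27 genes called in both tissues in the same direction whose size also differed. Among 16 immediate early genes measurable in both tissues it was the only one called for the difference (1.17% of all genes). Jun was higher in liver (1.01 ± 0.19, adjusted p = 0.00237) and at -0.06 in adipose tissue, but its difference of 1.07 was not called (adjusted p = 0.0786).

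Pdk4, the kinase that turns off pyruvate dehydrogenase in fasting, stood at -1.44, -1.97 and -1.66 in liver at ZT13, against 2.52, 1.46 and 2.06 at ZT1. In adipose tissue it stood at 1.85, 1.98 and 1.80 at ZT13, against 1.59, 2.43 and 3.07 at ZT1, with overlap. The difference was -3.22 ± 0.51 (adjusted p = 0.0151), lost with slide as a block (0.122) and without the 2 adipose arrays. Among 23 genes of fatty acid oxidation it was the only one called for the difference (1.17% of all genes). Of the other members, 6 were called higher in both tissues (8.7% of all genes were), among them Slc25a20, the carnitine carrier, at 2.30 in liver and 1.84 in adipose tissue, and Acot4, an acyl-CoA thioesterase, at 2.13 and 2.66.

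Chka, a choline kinase, was 8.58-fold lower in liver at ZT13 and at -0.04 in adipose tissue, a difference of -3.06 ± 0.41 (adjusted p = 0.00814), with -2.37 and -1.9 by 2 further probes (0.0129 and 0.0205). Cldn1, of tight junctions, differed by -3.80 ± 0.74 (adjusted p = 0.0315) and Slc2a13, a myo-inositol transporter, by -3.02 ± 0.61 (0.0359). The calls of Cldn1 and Slc2a13 were lost without any 1 of 9 and 10 arrays, and Cldn1 was below background on all adipose ZT1 arrays. Dok7, an adaptor of the muscle synapse, differed by -3.15 ± 0.54 (adjusted p = 0.0199) with a liver change of 0.19 and a rise in adipose tissue of 3.34 ± 0.38. Its slide step was -1.81, and its call was lost without adipose ZT13 replicate 2 or liver ZT13 replicate 3. With slide as a block none of these was called, with an adjusted p of 0.078 for Chka, 0.198 for Cldn1, 0.127 for Slc2a13 and 0.146 for Dok7.

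Of the 58 genes called in opposite directions, 33 were lower in liver and higher in adipose tissue, and 49 had a called difference. Depp1, a FOXO target, stood at 1.5, 2.49 and 1.16 in liver at ZT13, against 3.93, 4.54 and 3.90 at ZT1. Its adipose levels were 4.28, 3.88 and 3.71 at ZT13, against 2.69, 2.11 and 1.64 at ZT1. The times did not overlap in either tissue. The changes of -2.41 ± 0.37 in liver and 1.81 ± 0.37 in adipose tissue differed by -4.22 ± 0.52 (adjusted p = 0.00552). With slide as a block they differed by -4.44, with liver ZT13 replicate 1 alone.

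Rcor2, a corepressor of the LSD1 complex, stood at -3.11, -3.71 and -3.62 in liver at ZT13, against -1.64, -1.97 and -1.34 at ZT1. Adipose levels were 1.88, 1.68 and 1.81 at ZT13, against 0.31, 0.29 and 0.51 at ZT1. Its difference was -3.25 ± 0.30 (adjusted p = 0.00141). With slide as a block, and so with liver ZT13 replicate 1 alone, it was -2.885, and it stayed called under every other alternative run. Cacng7, a channel subunit, differed by -3.08 ± 0.28 (adjusted p = 0.00141) and Ybx2, a germ cell RNA-binding protein, by -2.79 ± 0.36 (0.00698), with adipose changes of 1.86 and 1.40 beside slide steps of 1.59 and 1.28. Their dimmer probes changed in adipose tissue by 0.39 and -0.39, so the opposite direction rests on 1 probe each. Dclre1b, a telomere nuclease, differed by -2.58 ± 0.48 (adjusted p = 0.0266), lost without any 1 of 7 arrays.

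Several of the largest shared changes beyond the clock matched the slide step in size. By the smaller of their 2 changes, the 10 largest shared rises were Ciart, Per2, Per3, Bhlhe40, Per1, Mycl, Cish, Gtf2h5, Rbm8a and Zcrb1. Gtf2h5, Rbm8a and Zcrb1 changed by 2.66 to 3.29 in the 2 tissues and had slide steps of 3.53, 2.79 and 3.29. Rbm8a, of the exon junction complex, stood at 4.46, 4.36 and 4.29 in liver at ZT13, against 0.90, 1.18 and 1.17 at ZT1, and its change was 0.59 in liver and -0.12 in adipose tissue once slide was fitted over 24 arrays. Mycl, a MYC family factor, was at least 13-fold higher in liver and changed by 6.42 ± 0.79 in adipose tissue, beside a slide step of 3.44. Cish, a cytokine signalling suppressor, changed by 3.52 ± 0.80 and 3.26 ± 0.80, beside a step of 0.48.

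**Figure D4:**
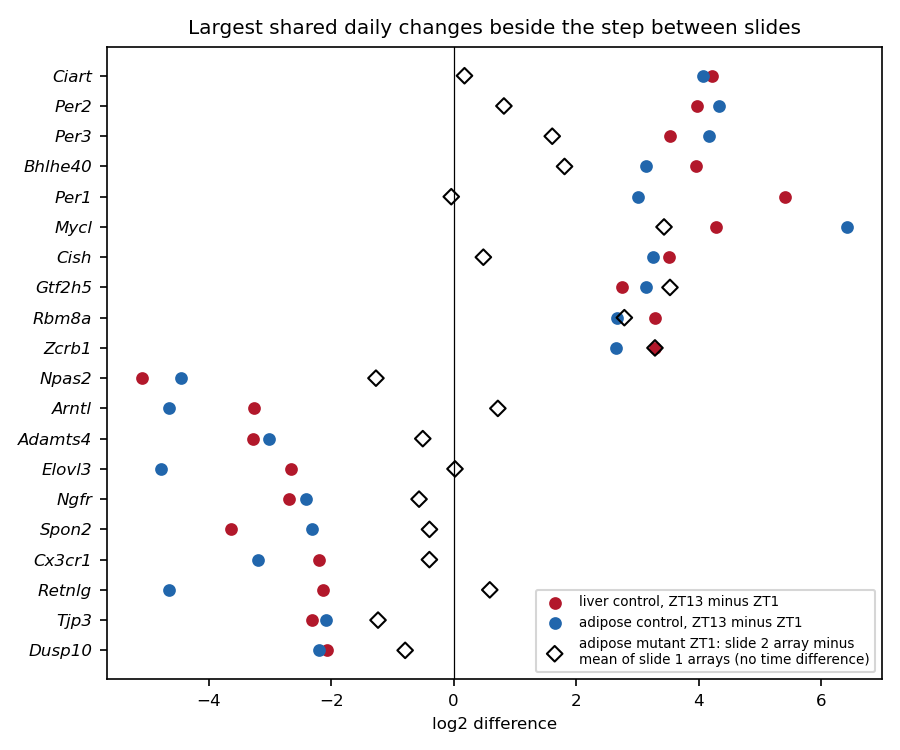
Daily change (ZT13 minus ZT1, log2) in liver and in adipose tissue of the 10 largest shared rises and 10 largest shared falls in control mice, with the step between slides in adipose hPER1 S714G arrays at ZT1 as open diamonds. For Gtf2h5, Rbm8a and Zcrb1 the step of 2.79 to 3.53 is as large as the daily changes, while for Ciart, Per1 and Cish it is below 0.5. Among the other shared rises it is 0.82 for Per2, 1.61 for Per3, 1.81 for Bhlhe40 and 3.44 for Mycl.

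The 10 largest shared falls were Npas2, Arntl, Adamts4, Elovl3, Ngfr, Spon2, Cx3cr1, Retnlg, Tjp3 and Dusp10, with slide steps of -1.27 to 0.72. Elovl3, a fatty acid elongase, changed by -2.65 ± 0.72 in liver and was at least 11.7-fold lower in adipose tissue at ZT13, where it was below background on all arrays. Spon2, a matrix protein, stood at -1.71, -2.15 and -1.83 in liver at ZT13, against 1.66, 1.9 and 1.68 at ZT1, and changed by -2.31 ± 0.28 in adipose tissue. Adamts4, a matrix protease, changed by -3.28 ± 0.31 in liver and -3.02 ± 0.31 in adipose tissue, and a dimmer probe by -1.47 and -2.74.

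Most neutrophil and T cell markers measurable in both tissues were lower at ZT13 in both. Of neutrophil markers measurable in both, 4 of 6 were called lower in both (12.8% of all genes were), as were 4 of 5 T cell markers. For macrophage markers it was 3 of 15 and for B cell markers 1 of 6. Such falls were not particular to leukocytes. The median daily change was -1.22 in liver and -1.10 in adipose tissue for neutrophil markers. It was -1.39 and -1.24 for bile duct markers (2 of 3 lower in both) and -1.15 and -1.46 for skeletal muscle markers (1 of 2). Endothelial markers were at 0.18 and 0.06 (1 of 10). The summed neutrophil level was 4.44 to 4.72 in liver at ZT13, against 4.93 to 5.46 at ZT1, and 3.80 to 4.0 in adipose tissue at ZT13, against 4.74 to 5.31 at ZT1, without overlap. The summed macrophage level overlapped between times in liver, at 8.63 to 9.06 at ZT13 against 8.02 to 9.08 at ZT1, and was 7.44 to 7.85 in adipose tissue at ZT13, against 8.02 to 8.50 at ZT1. The summed B cell level overlapped in both tissues, at 3.52 to 3.87 in liver at ZT13 against 3.68 to 4.07 at ZT1, and 4.08 to 4.43 in adipose tissue at ZT13 against 3.29 to 4.13 at ZT1. Retnlg, a resistin-like protein of neutrophils, changed by -2.13 ± 0.34 in liver and -4.65 ± 0.34 in adipose tissue, and its difference of 2.52 ± 0.48 was called (adjusted p = 0.0282) but lost without any 1 of 8 arrays. S100a9, a calprotectin subunit, changed by -1.78 in liver and -2.17 in adipose tissue. Cx3cr1, the fractalkine receptor of monocytes, changed by -2.20 ± 0.35 and -3.20 ± 0.35. T cell genes included Cd3e, of the receptor complex, at -1.39 in liver and -1.59 in adipose tissue, whose direction turned once slide was fitted over 24 arrays (0.28 and 0.08).

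Lists of liver functions were read in adipose arrays whose hepatocyte markers varied, and the part of those markers in the medians was not tested. For bile acid genes the median daily change was -0.18 in liver and -1.02 in adipose tissue, for xenobiotic genes 0.62 and 0.00, and for acute phase genes 0.15 and -0.53. For hepatocyte markers it was -0.02 and -1.45, with 4 of 15 called lower in adipose tissue (22.8% of all genes). Apoa1 stood at 2.40, 0.10 and 2.58 in adipose tissue at ZT13, against 3.03, 5.79 and 3.17 at ZT1, so replicate 2 was lowest at ZT13 and highest at ZT1. The difference was called for 0 of 12 bile acid genes, 0 of 15 hepatocyte markers, 1 of 15 xenobiotic genes (Alas1) and 1 of 18 acute phase genes (1.17% of all genes), Saa3, at 2.02 ± 0.37 (adjusted p = 0.0245, lost without any 1 of 8 arrays and without the 2 adipose arrays).

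**Figure D5:**
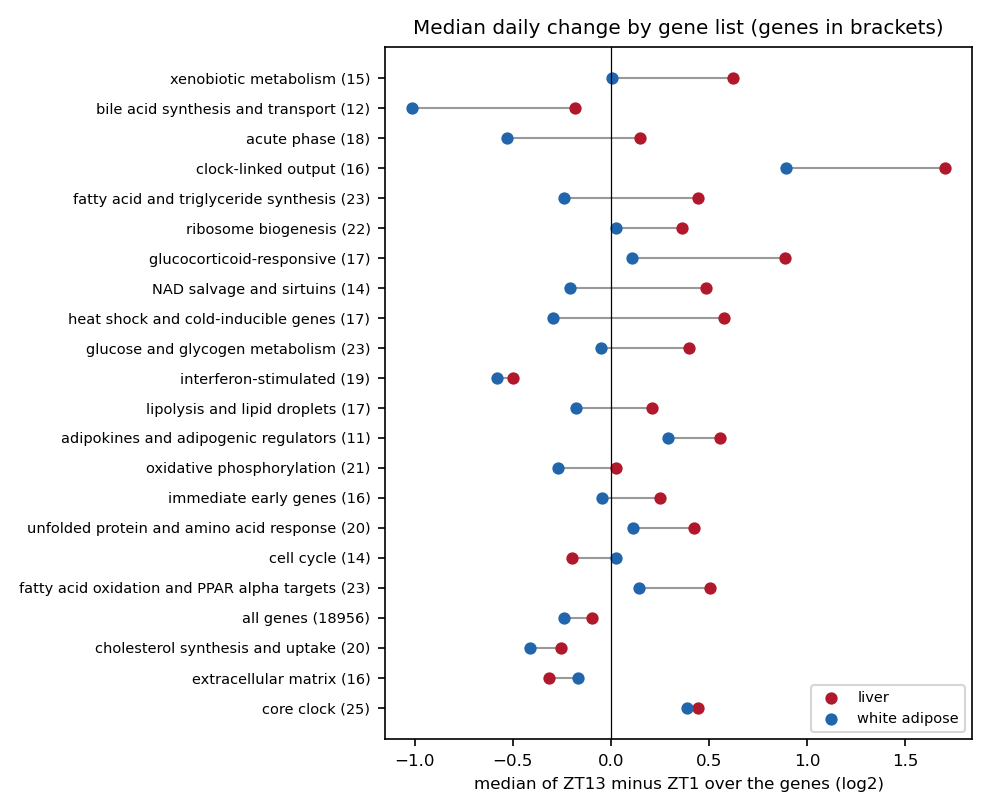
Median daily change (ZT13 minus ZT1, log2) in liver and adipose tissue of the 21 pathway lists and of all 18956 genes, ordered by the median difference, with the number of genes in brackets. The clock-linked outputs lie highest in both tissues, at 1.71 in liver and 0.89 in adipose tissue, and the bile acid list lies lowest in adipose tissue, at -1.02.

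Few genes of lipid and energy metabolism were called for the difference. Of 23 genes of fatty acid and triglyceride synthesis only Lpin1 was called for the difference. Fasn, fatty acid synthase, changed by 2.40 in liver and 1.06 in adipose tissue (adjusted p of the difference 0.393), and Elovl6, an elongase, was at 1.24 and -1.53 (0.0964). None of 20 genes of cholesterol synthesis and uptake, 21 of oxidative phosphorylation, 22 of ribosome biogenesis, 20 of the unfolded protein response or 14 of the cell cycle was called (1.17% of all genes). Gys2, the liver glycogen synthase, was higher in liver by 2.51 ± 0.40, with a difference of 2.56 ± 0.57 that was not called (adjusted p = 0.055). Of 22 ribosome biogenesis genes, 9 were higher and 1 lower in liver (17.2% and 21.3% of all genes), and 3 higher and 4 lower in adipose tissue (11.1% and 22.8%). Higher in both was Polr1b, a subunit of RNA polymerase I, at 1.84 and 1.24.

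Some genes could be followed in 1 tissue only. Of 3186 measurable in adipose tissue only, 802 were called there (25.2%), 289 higher (9.07%) and 513 lower (16.1%). Large rises were those of Crtac1, Slc4a8, Ranbp3l and Slc2a3. Slc2a3, the glucose transporter GLUT3, stood at 1.54, 1.69 and 1.13 at ZT13, against -1.58, -1.54 and -1.51 at ZT1, 8.0-fold higher and without overlap (adjusted p = 0.000285). The largest falls were those of Asb12, Mmp9, Cntn5, Krt32 and Inpp5j, with Mmp9, a neutrophil-rich protease, at -3.99 ± 0.37. For Cntn5 the fit had values on 2 liver ZT13 arrays and 1 liver ZT1 array.

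Of 729 genes measurable in liver only, 274 were called (37.6%), 47 higher (6.45%) and 227 lower (31.1%) at ZT13. The part of the lower array medians at ZT13 in these falls was not tested. Among the largest rises, Gnat1, a transducin subunit of the retina, stood at -0.26, -0.34 and -0.35 at ZT13, against -2.76, -3.13 and -4.15 at ZT1. Brip1, a DNA repair helicase, was at least 1.98-fold higher, Aipl1, a photoreceptor chaperone, at least 3.11-fold and Ovgp1, an oviduct glycoprotein, at least 4.0-fold, and Chsy3, a chondroitin synthase, changed by 2.84 ± 0.81. The largest falls were those of Pramel19, Brs3, Prkg2, Klhl1 and Chrna10, by -2.99 to -3.53.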

How the data were processed

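RNA of 12 control samples was measured on 1-colour Agilent mouse arrays, 1 sample per array. The files hold spot intensity values from Agilent Feature Extraction 10.7.3.1, deposited as processed signals (background-subtracted and detrended within an array) and as raw means with local backgrounds, and other columns hold the scanner's flags, per the file headers. The authors' deposited log2 table matched log2 of the processed signal minus a constant per array within 0.01 for at least 99.653% of probes (column medians -3.91 to -3.02), and served as an alternative. How its constant was chosen is not given in the sources used here.

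Control spots and outlier-flagged values were left out, replicate spots averaged, and log2 processed signals set against each array's 75th percentile. That percentile lay between 376 and 1808 intensity units, 45.5 to 71.2% of spots were well above background, and no spot was saturated. With 3 arrays per group, the number of arrays limits the precision. Probes were named through RefSeq by accession (26756), symbol (3824) or synonym (639), and 24462 kept the name in the files. Genes were kept where some group had all 3 arrays well above background for the brightest probe. Where a gene was below background, or saturated, on a whole group, its fold is a lower bound against the dimmest measured signal.

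limma 3.58.1 in R 4.3.3 fitted the 4 groups together over 22871 genes, with Benjamini-Hochberg adjustment over all of them and a threshold of 0.05, and every adjusted p in the text is from such a fit unless a probe is named, where all probes were fitted. Tested on simulated data of 22871 genes, the difference was called for 2 of 100 genes planted at log2 1, 39 of 100 at log2 2 and 4 of 22671 unchanged genes. Tables and plots used pandas 2.3.3 and matplotlib 3.10.9 in Python 3.11.15.

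The comparison, its 36 gene lists (21 pathways and 15 cell types, 559 of 564 entries on the array) and the genes named were chosen with earlier results of these data known. Named by rule were all core clock genes, the 10 largest differences and the 10 largest shared changes in each direction, the 5 largest opposite changes, the 5 largest changes per direction in genes measurable in 1 tissue, and up to 4 members of each list by lowest p of the difference. Some genes that the rule names are not reported here. Acot4, Adipoq, Fasn, Fkbp5, Foxo1, Polr1b, S100a9, Sgk1 and Slc25a20 were named after their values were seen. Alternatives changed the background correction, scaling, filter, probes, slide or replicate block, arrays fitted and value table. The slide step and the fit without 2 adipose arrays were chosen after seeing the data.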

Additional observations from a re-analysis of the deposited data

Results flagged for a closer look

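The daily change differed between liver and adipose tissue for 221 genes measurable in both, by limma's test of the difference itself. Differences below are log2, liver minus adipose tissue, and all passed an adjusted p of 0.05 in limma's fit over 12 arrays. Among clock genes and clock-linked outputs the difference was 2.40 for Per1, 3.16 for Usp2, 3.77 for Lpin1, 3.37 for Pfkfb3, 1.64 for Nampt and 2.04 for Coq10b. Among other genes that were higher at ZT13 in liver it was 5.5 for Mfsd2a, 3.36 for Arhgef26, 3.22 for Tsku, 3.15 for Plk3, 2.91 for Cidec, 2.84 for Gas2l3, 2.01 for Plin4 and 2.40 for Nrg4. In the same direction it was 1.5 for Zbtb16, 2.25 for Hspa1a, 1.88 for Hsph1, 2.11 for Alas1, 1.86 for Nmrk1 and 2.02 for Saa3. It was 2.52 for Retnlg, which was lower at ZT13 in both tissues and by more in adipose tissue.

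Negative differences were -4.86 for Loxl4, -4.22 for Depp1, -3.80 for Cldn1, -3.53 for Egr1, -3.25 for Rcor2, -3.22 for Pdk4 and -3.15 for Dok7. They were -3.08 for Cacng7, -3.06 for Chka, -3.02 for Slc2a13, -2.79 for Ybx2 and -2.58 for Dclre1b. Of genes measurable in 1 tissue only, the difference was 4.84 for Aipl1, 3.88 for Brip1 and 4.33 for Gnat1 in liver. For genes measurable in adipose tissue only it was -2.39 for Slc4a8, -3.21 for Ranbp3l, -2.78 for Slc2a3 and 3.05 for Mmp9. In the tissue in which such a gene was not measurable, neither time had all 3 arrays well above background, so its daily change there was not measured. A call for such a gene therefore does not show that the tissues differed. Aipl1 and Brip1 were also below background in liver at ZT1, as was Cidec, so the sizes of such differences are fitted values and not measured ones.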

How the results depend on the processing

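The count of 221 differences was 356 with normexp, 50 with no filter on dim probes, 338 with slide as a random block, 446 in a fit of all 24 arrays, 25 with slide as a fixed block and 47 without the 2 adipose arrays, and 61 to 213 when single arrays were left out. Liver calls (7291) were 132 once slide was fitted over 24 arrays and 5186 to 8021 without single arrays. Adipose calls (6434) were 9773 with slide as a random block, 41 once slide was fitted over 24 arrays, 3748 without the 2 adipose arrays and 3792 to 7173 without single arrays, with 3835 without ZT1 replicate 3, 4135 without ZT13 replicate 1 and 3792 without ZT13 replicate 3. Shared calls (4070) were 6163, 17 and 2578 to 4539 under the random block, the 24-array fit with slide and single arrays left out, with 2698 without adipose ZT1 replicate 3 and 2578 without adipose ZT13 replicate 3. Why these counts moved was not tested. Positive differences were 51.6% of calls, and 37.5% when arrays were centred on probes measured on all arrays. Under quantile normalization, rises were 46.0% of adipose calls, against 32.8%, and 53.0% of shared calls, against 40.5%. No difference of a named gene changed direction. The step from slide 1 to slide 2 in the 24-array fit comes from the adipose hPER1 S714G arrays at ZT1, with 1 array on slide 2. Once slide was fitted over 24 arrays, the liver change turned to 0.69 for Rorb, 0.15 for Csnk1e, -0.60 for Gtf2h5, -0.52 for Zcrb1, 0.30 for Chrna10, -0.036 for Nmnat1, -0.041 for Cd163, 0.28 for Cd3e, 0.75 for Cela3b and 0.17 for Rnase10. The adipose change turned to -0.39 for Gtf2h5, -0.12 for Rbm8a, -0.63 for Zcrb1, 0.28 for Pramel19, -0.69 for Nmrk1, 0.025 for Nop56, -0.57 for Steap4, 0.083 for Cd3e and 0.23 for Cela3b. Ranbp3l in liver turned to 0.95 under quantile normalization.

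Whether replicate numbers mark tissues of 1 animal could not be told from the arrays. Of 6 pairs of the same number and time, 1 had a correlation over 0.1 (range -0.375 to 0.105). Adipose ZT1 replicate 3 correlated at 0.621 with liver ZT1 replicate 1 and at -0.575 with liver ZT1 replicate 2, so these correlations cannot decide it. With the number as a replicate block over the 4 groups the differences called were 104, and with the block within time 8.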

Other observations

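An E-box was found before the start of 14 of 79 genes with a positive difference and a promoter entry (17.7%), and of 5 of 64 with a negative one (7.81%), against 999 of 10494 genes measurable in both tissues (9.52%). These shares are descriptions of the letters present, and no test was run on them.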
